A study of Mus musculus with 8 samples.

Results

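Kit and 6 other receptors for blood cytokines were followed through the endothelial and blood cells of the embryonic aorta-gonad-mesonephros (AGM) region. The members are the genes Kit, Flt3, Csf2ra, Csf2rb, Csf3r, Il7r and Il3ra and the antibody tag against c-kit (CD117, the protein that Kit encodes). They were named in advance, but with earlier results of these data known. They make up 7 of the 28014 genes and 1 of the 6 tags in the deposited table, and all 7 genes and the tag were found there. Single CD31+ cells of mouse embryos at embryonic day 10.5 were profiled by CITE-seq, which reads the RNA molecules of a cell (counted as unique molecular identifiers, UMIs) together with DNA-barcoded antibodies bound to its surface.

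There were 5 WT libraries (C57BL/6 mice), named WT 1 to 5, and 3 libraries of Meis1-flox/VE-Cre embryos, labelled as a Meis1 knockout. In the latter loxP sites flank exon 8 of Meis1, which encodes a homeobox transcription factor, and Cre is driven by the promoter of Cdh5 (VE-Cadherin), so that the allele is recombined in endothelium and is inherited by the blood cells that arise from it. The paper lists a Cre line of mixed strain background, so strain may differ between the groups. It also uses the name WT for littermates without Cre. Each library pooled 2 to 5 embryos and was sorted for CD31, so the host's other cells were not profiled and a library is a mean over embryos. RNA was read from its 3′ end, which does not read the deletion of exon 8. The 15168 cells carry 10 deposited cell type names: 4 groups of venous endothelial cells (vEC_1 to vEC_4), arterial endothelial cells (aEC), endothelium thought to precede the hemogenic state (pre-HE), cells passing from endothelium to blood (EHT, endothelial-to-hematopoietic transition), erythro-myeloid progenitors (EMP), Myeloid cells and Megakaryocytes.

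These receptors let a blood cell hear the growth factors around it. Kit and Flt3 are receptor tyrosine kinases, whose ligands are stem cell factor (Kitl) and Flt3 ligand, and Kit is a long-used surface marker of the cell clusters that bud from the aorta. The others lack a kinase of their own and signal through JAK kinases and STAT factors: Csf2ra pairs with Csf2rb, the common beta chain, to bind GM-CSF, Il3ra pairs with beta chains to bind IL-3, Il7r pairs with Il2rg to bind IL-7 or with Crlf2 to bind TSLP, and Csf3r binds G-CSF as a pair of like chains.

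Kit lies on chromosome 5 at 75574987 to 75656722 of the mouse build GRCm38.p6, and Flt3 on the same chromosome at 147330741 to 147400489. Il7r and Csf2rb lie on chromosome 15, at 9506159 to 9529941 and 78325800 to 78351001. Csf2rb stands beside its near-copy Csf2rb2, at 78282507 to 78305721, so reads of this pair may be split between them. Csf3r lies on chromosome 4, Csf2ra on chromosome 19 and Il3ra on chromosome 14.

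The bases upstream of Kit, Flt3 and Il7r are shown because Kit was highest in EHT cells and Flt3 and Il7r, at 0 counts in pre-HE, were read there. They are given 5′ to 3′ on the strand of the gene, from RefSeq on GRCm38.p6, at chr5:75574737-75574986 on the plus strand for Kit, chr5:147400490-147400739 on the minus strand for Flt3 and chr15:9529942-9530126 on the minus strand for Il7r. Capitals would mark, on either strand, TGACAG (a motif known for Meis1), TGTGGT (for Runx1), GAGGAAGT (for PU.1, the product of Spi1) or AGATAA (for GATA factors), and none of them occurred in these windows.
Kit: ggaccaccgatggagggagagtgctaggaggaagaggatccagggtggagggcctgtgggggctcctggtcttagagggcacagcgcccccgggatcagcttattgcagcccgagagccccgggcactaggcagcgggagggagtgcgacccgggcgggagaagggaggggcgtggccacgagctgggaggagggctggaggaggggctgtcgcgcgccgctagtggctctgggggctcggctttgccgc
Flt3: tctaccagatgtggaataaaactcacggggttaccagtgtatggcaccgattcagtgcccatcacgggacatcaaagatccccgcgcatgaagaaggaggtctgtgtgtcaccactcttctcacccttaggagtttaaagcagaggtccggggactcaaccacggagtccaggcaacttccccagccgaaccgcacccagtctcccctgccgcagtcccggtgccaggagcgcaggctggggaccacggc
Il7r: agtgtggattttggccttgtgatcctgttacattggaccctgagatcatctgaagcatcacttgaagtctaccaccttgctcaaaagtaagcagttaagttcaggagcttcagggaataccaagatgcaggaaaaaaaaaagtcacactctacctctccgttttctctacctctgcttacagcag
The Kit window holds 70.8% G or C and 17 CpG dinucleotides, the Flt3 window 59.2% and 13, and the 185 bases of the Il7r window 43.8% and 1. Over 32851 such promoters the median was 52.4% and 6 CpG. The motif TGACAG was in 15.9% of all promoters, TGTGGT in 14.0%, GAGGAAGT in 2.44% and AGATAA in 9.99%. No match says only that these letters are absent from these windows.

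The libraries held 20484881 to 79429129 UMIs. The median UMIs per cell were 26572 to 28553 in WT 1 to 4, but 12720.5 in WT 5 and 9611.5 to 14895 in the Meis1-flox/VE-Cre libraries, so that genotype and depth run largely together. The mean c-kit tag per cell ranged from 70.4 to 2.11 counts and was 0 in WT 4, which therefore gives no tag value. Of 15135 distinct barcodes, 33 occurred in 2 or more libraries. In the deposited cell table the 2114 cells of WT 5 carry names that start with Mf, while those of WT 4 are bare barcodes, and each cell was taken as the sample that table names. Meis1 itself was at 56.7 to 77.0 CPM (UMIs of the gene scaled to a common total) in WT EMP cells and at 20.9 to 36.4 in Meis1-flox/VE-Cre ones, a log2 difference of -1.20 (adjusted p = 0.0066, quasi-likelihood F test of edgeR, p adjusted by Benjamini-Hochberg, BH). In EHT cells the ranges were 68.0 to 85.8 and 55.5 to 70.9, and in pre-HE, with the median at 32.4 and 29.7, they were 12.9 to 51.4 and 9.57 to 53.0. In aEC, where Meis1 was too low to be tested, the medians were 1.26 and 2.04 CPM. Meis1 RNA was thus not seen to be lower in every cell type of the Meis1-flox/VE-Cre libraries.

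Levels are given as CPM of the UMIs summed over the cells of 1 type in 1 library. They compare 1 gene across cell types, not gene with gene. In such sums fewer expressing cells and less RNA per cell cannot be told apart. Each step between cell types was tested in WT only, blocked by library (n = 5), and the call is an adjusted p under 0.1. The cell types were drawn from the same RNA, so a step in RNA is in part built into the names.

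Kit RNA was present in all 10 cell types, fell from aEC to pre-HE in WT, and was highest in EHT cells. In WT 1 to 5 it was at 36.9, 24.4, 50.3, 35.5 and 31.9 CPM in aEC and at 14.7, 4.67, 13.0, 17.4 and 12.9 in pre-HE, and these ranges did not overlap. In EHT cells it was at 162.5, 154.7, 218.2, 181.4 and 135.7 CPM, far above both, and in EMP cells at 84.2, 71.1, 94.4, 83.7 and 79.3. Myeloid cells held 7.52 to 27.9 CPM and Megakaryocytes 5.07 to 17.5. The log2 fold change was -1.40 ± 0.25 (SE) from aEC to pre-HE, where 42.1% of all genes tested were called, and 3.61 ± 0.20 from pre-HE to EHT, where 61.2% were called (edgeR F test, BH, adjusted p = 4.8e-06 and 2.9e-20). It then fell by 0.91 from EHT to EMP, by 2.55 from EMP to Myeloid cells and by 2.88 from EMP to Megakaryocytes, and in these steps 57.5%, 59.9% and 58.7% of genes were called. In the order of WT means, EHT stood above EMP and EMP above aEC in 5 of 5 WT libraries. Below them neighbours were less distinct: vEC_1 was above vEC_4 in 3 of 5, and Myeloid above pre-HE in 3 of 5. The WT pre-HE values rest on 35 Kit UMIs over the 5 libraries. In Meis1-flox/VE-Cre 1 to 3 the log2 ratio of Kit in pre-HE to aEC was -0.94, -0.04 and 0.30. A fall was thus not common to these libraries.

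**Figure D1:**
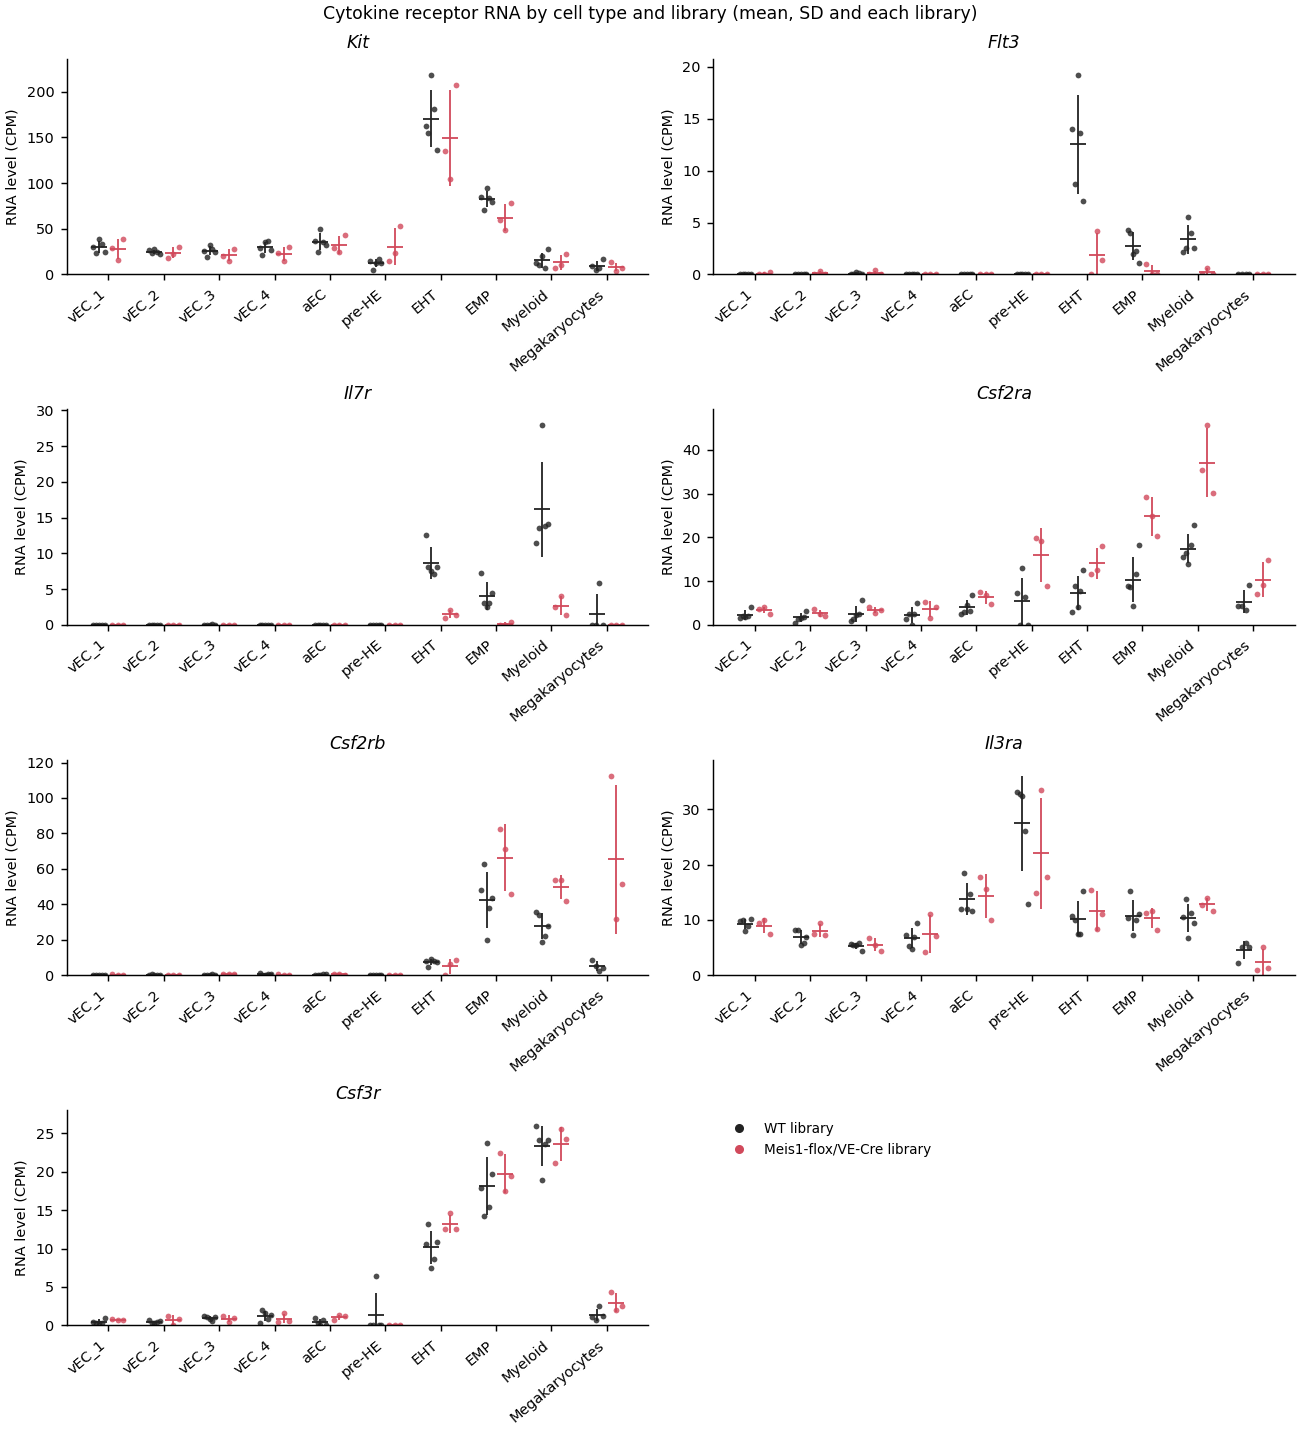
RNA level of each receptor gene in each of the 10 cell types, in CPM of summed UMIs. Each point is 1 library, coloured by genotype, and bars give the mean and SD; Kit peaked in EHT cells at 104.2 to 218.2 CPM, while Flt3 and Il7r were at or near 0 in endothelium.

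The other receptor kinase, Flt3, which marks early progenitors, was read in blood cells and hardly in endothelium. In aEC and pre-HE its count was 0 in all 8 libraries. In WT EHT cells it was at 14.0, 8.77, 19.2, 13.7 and 7.06 CPM, from 13 to 35 UMIs a library, and in WT EMP cells at 4.29, 3.96, 1.94, 2.31 and 1.11. The ranges of EHT and EMP did not overlap, and Flt3 fell by 1.99 on the log2 scale between them (SE 0.29, adjusted p = 3.8e-05, edgeR F test, BH). Against the 3 counts that a count of 0 over the WT pre-HE cells allows, Flt3 was at least 9.56-fold higher in EHT. Against the same limit in WT Megakaryocytes it was at least 5.56-fold higher in EMP cells.

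Il7r, the chain that binds IL-7, followed Flt3 into EHT but was highest in Myeloid cells. It was at 0 in pre-HE and aEC in every library. In WT EHT cells it was at 12.5, 8.14, 7.52, 7.04 and 8.14 CPM, at least 6.79-fold above the limit in pre-HE. It fell by 0.98 on the log2 scale from EHT to EMP and rose by 1.91 ± 0.28 from EMP to Myeloid cells (edgeR F test, BH, adjusted p = 0.0035 and 0.00015), where the libraries stood at 11.4, 13.6, 27.9, 13.8 and 14.1 CPM. In WT Megakaryocytes all of its UMIs came from WT 4, and the step from EMP was called without that library (adjusted p = 0.0075, edgeR) and not with it (-1.64 ± 0.95). Of its chain partners, Il2rg rose by 1.65 from aEC to pre-HE, fell by 2.01 from pre-HE to EHT and rose by 1.72 from EHT to EMP, opposite to Il7r from pre-HE to EHT and from EHT to EMP.

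Flt3 and Il7r RNA were often read in the same cells. In WT EHT cells 24 of 65 cells with a Flt3 UMI also had an Il7r UMI (36.9%), against 7.28% of the cells without Flt3. In WT EMP cells it was 13 of 23 (56.5%) against 1.63%, and in WT Myeloid cells 52 of 78 (66.7%) against 16.3%. Cells were pooled over libraries here and deeper cells show more of every gene, so these shares are a description. Across 79 sums of a cell type in a library, Il7r was also the gene out of 9694 whose profile was most like that of Flt3 (Pearson's r = 0.85), ahead of Matk (0.81) and Gpr171 (0.81). Genotype and cell type are shared by these sums, so they are not independent points.

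The beta chain of the GM-CSF and IL-3 receptors was highest in EMP cells. Csf2rb had no count in pre-HE in any library, and stood at 8.20, 4.38, 9.19, 8.21 and 7.60 CPM in WT EHT cells and 48.2, 62.7, 19.9, 37.6 and 43.4 in WT EMP cells. The ranges did not overlap, and the rise from EHT to EMP was 2.62 ± 0.21 on the log2 scale (edgeR F test, BH, adjusted p = 9.1e-08). It was at least 5.87-fold higher in EHT than the limit in pre-HE. From EMP it fell by 0.63 to Myeloid cells and by 3.28 to Megakaryocytes. Csf2ra, which binds GM-CSF itself, was read at low levels in endothelium (0 to 12.97 CPM in WT pre-HE) and did not pass the test from pre-HE to EHT (0.25 ± 0.55). It rose by 0.67 from EHT to EMP and by 0.77 from EMP to Myeloid cells, and fell by 1.10 to Megakaryocytes. The call from EHT to EMP was lost with DESeq2 (adjusted p = 0.195) and without the library block (0.230, edgeR). Without the block the call from EMP to Megakaryocytes was lost too (0.148, edgeR). In WT EMP cells 87 of 126 cells with Csf2ra also had Csf2rb (69.0%), against 50.8% of the cells without Csf2ra.

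Il3ra, the IL-3 binding chain, was the exception, being highest in pre-HE. In WT 1 to 5 it was at 33.2, 32.7, 32.4, 26.1 and 12.9 CPM there, and at 12.0, 18.5, 11.9, 14.7 and 11.7 in aEC. WT 5, with 16 pre-HE cells, was the lowest of these libraries and lay within the aEC range. Il3ra rose by 0.87 ± 0.25 from aEC to pre-HE and fell by 1.46 ± 0.30 from pre-HE to EHT (edgeR F test, BH, adjusted p = 0.0037 and 6.4e-05). The call of Il3ra from aEC to pre-HE was lost after thinning each cell to 5000 UMIs (0.87, adjusted p = 0.111, edgeR). Its usual partner Csf2rb was at 0 in those pre-HE cells. Csf3r, the receptor of granulocyte growth, was at 7.52 to 13.2 CPM in WT EHT cells, 14.2 to 23.7 in EMP and 19.0 to 25.9 in Myeloid cells. It rose by 0.91 from EHT to EMP and by 0.48 from EMP to Myeloid cells, and fell by 3.55 to Megakaryocytes.

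Counted over the 7 members, 2 of the 2 tested from aEC to pre-HE were called, 6 of 7 from pre-HE to EHT (5 rose), 6 of 7 from EHT to EMP (3 rose), 5 of 7 from EMP to Myeloid cells (3 rose) and 6 of 7 from EMP to Megakaryocytes (none rose). Of all genes tested 42.1%, 61.2%, 57.5%, 59.9% and 58.7% were called in the same steps. Flt3, Il7r and Csf2rb were at 0 in pre-HE, and Csf3r had 1 UMI in WT pre-HE. These could be tested against pre-HE only through their counts in EHT. A filter by group sizes left 2 rather than 7 members to test from pre-HE to EHT. Flt3, Csf2ra, Csf2rb, Csf3r and Il7r were too low to be tested from aEC to pre-HE. Of their ligands, Kitl was the one with many UMIs, at 136.6 to 207.6 CPM in WT aEC. It fell by 2.23 from aEC to pre-HE and by 2.94 from pre-HE to EHT, steps in which Kit fell and then rose. Of 17 other receptors and shared chains, Csf1r, the M-CSF receptor, rose by 4.45 from EMP to Myeloid cells. Of 19 JAK-STAT genes and adaptors, 7 rose and 2 fell among 19 tested from pre-HE to EHT, and 8 rose and 4 fell from EHT to EMP, steps in which 61.2% and 57.5% of all genes were called. Of 16 feedback inhibitors and induced genes, 4 rose and 2 fell among 13 from pre-HE to EHT, and 4 rose and 7 fell among 14 from EHT to EMP, against the same shares of all genes.

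Over the same 79 sums, the genes whose profiles were most like that of each receptor, by Pearson's r of log2(CPM + 1), were Cacna1a (0.77), Rnmt and Epb41l4aos for Kit. They were Atp6v0b (0.84), Ucp2 and Lamtor4 for Csf2ra and Emilin2 (0.94), Pik3cd and Psmb10 for Csf2rb. For Csf3r they were Myo1g (0.95), Gpx1 and Ebi3, for Il7r Tnni2 (0.89), Pkib and Rassf5, and for Il3ra Tm6sf1 (0.84), Fxyd5 and Hmox2. Kit correlated with Flt3 at 0.56 and with Csf2rb at 0.09, so that the profile of Kit was closer to that of the other receptor kinase than to that of the beta chain.

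The c-kit tag took no part in naming the cell types and so measures the protein apart from them. Since the tag's yield fell from library to library, it was set against aEC of the same library, as the log2 ratio of mean tag counts per cell. In EHT cells the mean tag was 184.0, 164.7, 103.3 and 62.5 counts in WT 1, 2, 3 and 5 and 41.7, 29.0 and 10.1 in Meis1-flox/VE-Cre 1 to 3, and in aEC it was 47.9, 47.5, 19.4, 7.63, 9.45, 3.99 and 1.31 in the same order. EHT was above aEC in 7 of 7 libraries. The log2 ratio was 2.45 ± 0.51 (SD, n = 7) in EHT, 1.73 ± 0.36 in EMP, 0.93 ± 0.39 in Myeloid cells and 1.34 ± 0.27 (n = 6) in Megakaryocytes, while pre-HE stood below aEC at -0.39 ± 0.28. By exact sign flips over libraries, two-sided and adjusted over 9 cell types, p was 0.0469 for each of these, past the threshold of 0.05 used for tags and shares, and with 7 libraries the smallest p is 0.0156. With the same adjusted p, vEC_3 stood above aEC at 0.29 ± 0.15, in 6 of 7 libraries. Megakaryocytes of WT 3, with 5 cells, were left out. Without any 1 library the directions held, with ratios of 2.35 to 2.56 in EHT and -0.46 to -0.32 in pre-HE, but 6 libraries allow no p under 0.0312 and adjusted p reached 0.0938. With median tag counts in place of means the ratios were 2.37 in EHT, 1.69 in EMP, 0.31 in Myeloid cells and 0.76 in Megakaryocytes, and none passed 0.05 (exact sign flips, adjusted p = 0.0703 in EHT and EMP).

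The tag's order was not that of the RNA. Kit RNA in Myeloid cells and Megakaryocytes was below aEC in every library (log2 ratios of -1.22 and -1.88), while the tag was above it. The gap between the tag ratio and the RNA ratio was 2.16 ± 0.27 on the log2 scale in Myeloid cells and 3.22 ± 0.77 in Megakaryocytes (exact sign flips, adjusted p = 0.0352 and 0.0469), and 0.22 ± 0.65 in EHT (adjusted p = 0.4375). It was also above 0 in EMP (0.61, adjusted p = 0.0469) and in vEC_2, vEC_3 and vEC_4 (0.58, 0.82 and 0.66, in 7 of 7 libraries, adjusted p = 0.0352 for each, exact sign flips). The other antibodies gave more counts on these cells too: the sum of 4 other tags (CD41, CD43, CD45.2 and CD27) had a log2 ratio to aEC of 3.17 in EHT, 3.82 in EMP, 3.91 in Myeloid cells and 4.74 in Megakaryocytes. Taken as a centred log ratio among tags, c-kit was higher than in aEC only in EHT of these 4 (0.29, adjusted p = 0.141) and lower in EMP, Myeloid cells and Megakaryocytes (-0.62, -1.49 and -1.43, adjusted p = 0.0563 for each by exact sign flips). The part of this rise of all tags in the c-kit tag was not tested.

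**Figure D2:**
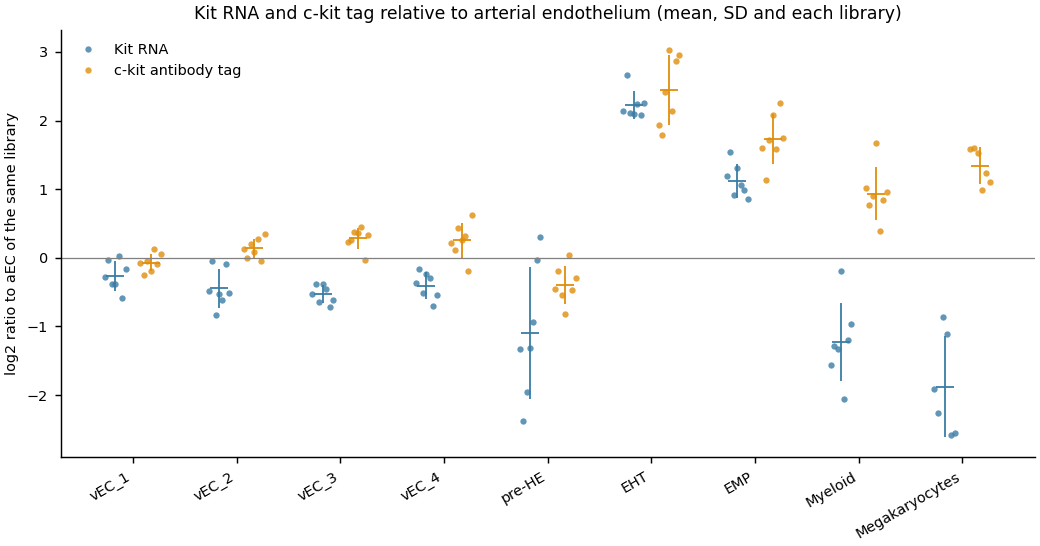
Kit RNA and c-kit tag in each cell type as log2 ratios to aEC of the same library, points being libraries with a mean and SD. RNA and tag were both high in EHT (2.23 and 2.45) but stood on opposite sides of aEC in Myeloid cells and Megakaryocytes.

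Counted as cells, 79.9 ± 11.9% (SD, n = 7) of EHT cells had a tag above the 95th percentile of endothelial cells in their own library. The share was 52.9 ± 19.9% in EMP, 32.1 ± 12.9% in Megakaryocytes (n = 6), 17.2 ± 5.47% in Myeloid cells and 4.86 ± 1.45% in aEC. It was 0 of 161 cells in pre-HE. No genotype difference in the tag passed: Meis1-flox/VE-Cre minus WT was 0.36 in EHT, 0.23 in EMP, -0.36 in Myeloid cells and -0.46 in Megakaryocytes on the log2 scale (exact permutation of libraries, two-sided, adjusted p = 0.551 for each). With 4 libraries against 3 the smallest p is 0.0286. In Megakaryocytes the genotypes did not overlap, at 1.58 ± 0.04 (SD, n = 3) in WT and 1.11 ± 0.13 (n = 3) in Meis1-flox/VE-Cre. There 3 libraries against 3 allow no exact p under 0.1, so this difference could not pass.

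Within a cell type, Kit RNA and tag were weakly correlated over cells, which in counts this sparse is a description only. After thinning each cell to 5000 UMIs, Spearman's rho between Kit UMIs and the tag had a median over libraries of 0.25 in EHT, 0.20 in EMP, 0.26 in Myeloid cells and 0.20 in Megakaryocytes, and lay between -0.02 and 0.10 in aEC and the 4 vEC types. With all UMIs it was 0.42, 0.39 and 0.44 in EHT, EMP and Myeloid cells. The tag was correlated as well with the total UMIs of a cell (median rho 0.29 to 0.49 over cell types) and with the other tags (0.41 to 0.67), which are read from the same droplet. Myeloid cells with 1 Kit UMI had a mean tag 3.17 ± 0.89 times (SD, n = 5 libraries) that of Myeloid cells with none, and EHT cells with 3 or more had 1.63 ± 0.49 times (n = 4). With 1 Kit UMI the ratio was 1.09 ± 0.19 in EHT cells and 1.23 ± 0.14 in EMP (n = 7 each).

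Cells of each type and library were also divided at the median tag, and the RNA of the cells above it was compared with that of the rest, with the library as a block. In Myeloid cells Kit was at 20.7, 16.7, 31.9, 40.7, 11.6, 18.7 and 39.5 CPM above the median (WT 1, 2, 3 and 5, then Meis1-flox/VE-Cre 1 to 3) and at 0.76, 0.89, 8.74, 6.06, 0.87, 1.02 and 2.68 at or below it. The groups did not overlap, and the log2 difference was 3.57 ± 0.20 (edgeR F test, BH, adjusted p = 5.8e-09), where 30.9% of all genes were called. Myeloid cells with more tag also held more of the summed EMP markers, at 170.1 to 308.4 against 113.5 to 169.7 CPM, and of the mast cell markers, at 8.0 to 62.4 against 0 to 6.93, in 7 of 7 libraries. The myeloid markers were lower there in 6 of 7, and the part of these markers in the difference was not tested. In EMP Kit was 0.74 ± 0.09 higher, in 7 of 7 libraries (adjusted p = 2.7e-05, edgeR), and 8.25% of genes were called. In EHT it was 0.43 ± 0.12 higher, in 6 of 7 libraries (adjusted p = 0.0727, edgeR), and 0.852% of genes were called. In Megakaryocytes it was 1.71 ± 0.52 higher, in 5 of 6 libraries (adjusted p = 0.0808, edgeR), with 5.76% called. The Megakaryocytes with more tag held more of the pan-endothelial markers, at 275.2 to 598.6 against 92.4 to 324.3 CPM, and of the venous, arterial and myeloid markers, in 6 of 6 libraries, and their part was not tested. The call in EHT was lost with DESeq2 (0.523), after thinning (0.334) and without any of 6 of the 7 libraries, WT 5 being the exception, where adjusted p reached 0.367 without WT 1. That in Megakaryocytes was lost with DESeq2 (0.339) and without Meis1-flox/VE-Cre 2 (0.143) or 3 (0.167).

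**Figure D3:**
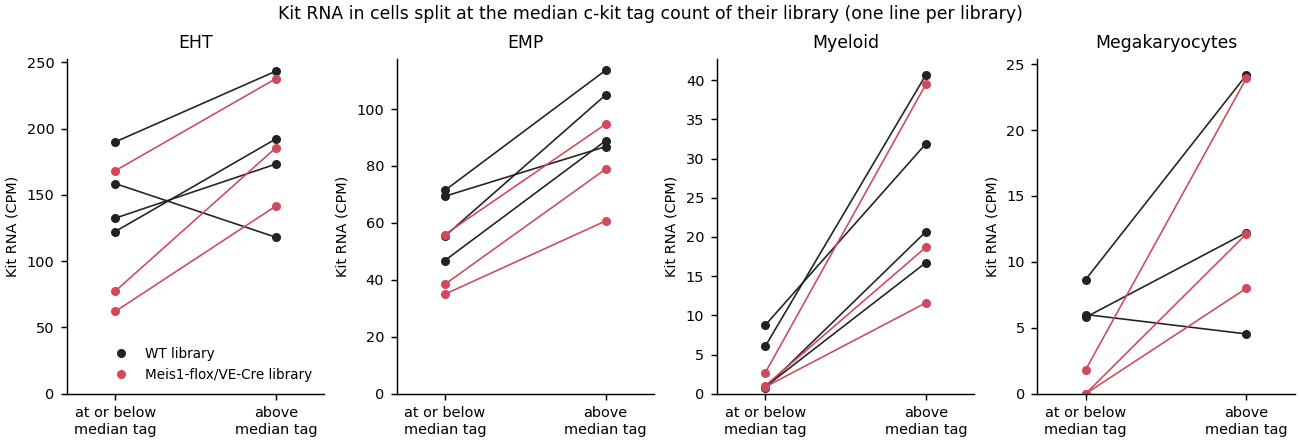
Kit RNA in CPM in cells above and at or below the median c-kit tag of their own cell type and library, 1 line per library. The lines rise in 7 of 7 libraries for EMP and Myeloid cells and in 6 of 7 for EHT.

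In this division of the cells the other members went the other way with the tag or did not pass. In EMP, 4 of 5 tested members were called, where 8.25% of all genes were. Beside Kit, Csf2ra fell by 0.81, Csf2rb by 0.52 and Il3ra by 0.76 in the cells with more tag. Csf2rb and Il3ra were lower there in 7 of 7 libraries and Csf2ra in 6 of 7 (adjusted p = 0.0093, 0.0099 and 0.034 for Csf2ra, Csf2rb and Il3ra, edgeR F test, BH). These 3 calls were lost with DESeq2 (adjusted p = 0.251, 0.107 and 0.535) and that of Csf2rb after thinning (0.842). Without WT 1 the adjusted p of Il3ra was 0.118 and without Meis1-flox/VE-Cre 2 it was 0.107. In Myeloid cells 2 of 7 were called, Kit and Csf2ra, which is near the 30.9% of all genes called there. Csf2ra fell by 0.31 and lost its call after thinning (0.967, edgeR). In EHT 1 of 4 and in Megakaryocytes 1 of 2 tested members were called, Kit in both, against 0.852% and 5.76% of all genes.

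Other genes were called with the tag as well. In EHT, Gja4 and Cldn5, junction genes of endothelium, fell by 2.31 and 1.12 and Id3 by 1.34, while Vav3 and Msi2 rose by 0.70 and 0.48. In EMP the neutrophil genes S100a9, Ms4a3 and Hp fell by 7.65, 2.16 and 1.72, and Stfa1 and BC100530, which share reads within the stefin cluster and are uncertain, by 3.95 and 5.40. Bex4, Zfpm1 and Kpna2 rose by 0.75, 0.64 and 0.83. The summed level of 9 granulocyte markers was lower in EMP cells with more tag in 7 of 7 libraries, at 933 to 1549 CPM against 1891 to 5390. These markers moved with Csf2ra, Csf2rb and Il3ra, and their part in those differences was not tested.

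Between genotypes, Flt3 and Il7r were lower and Csf2ra and Csf2rb higher in Meis1-flox/VE-Cre Myeloid cells. WT 1 to 5 held Flt3 at 2.20, 2.57, 5.58, 4.00 and 2.57 CPM, and Meis1-flox/VE-Cre 1 to 3 held it at 0, 0.64 and 0.08, a log2 difference of -3.46 ± 0.66. Il7r was at 11.4, 13.6, 27.9, 13.8 and 14.1 CPM against 2.55, 4.04 and 1.43, a difference of -2.44 ± 0.37. The UMIs behind the Meis1-flox/VE-Cre values were 8 for Flt3 and 81 for Il7r. By the edgeR F test with BH adjustment, adjusted p was 0.0321 for Flt3 and 0.0147 for Il7r. Csf2ra was at 15.6, 16.5, 13.9, 18.2 and 22.8 CPM in WT and 35.3, 45.6 and 30.2 in Meis1-flox/VE-Cre, 1.14 ± 0.17 higher (adjusted p = 0.0119, edgeR). Csf2rb was at 35.5, 33.8, 18.4, 21.96 and 27.6 against 53.8, 53.4 and 41.9, 0.88 ± 0.17 higher (adjusted p = 0.0344, edgeR). Thus 4 of 7 members were called in Myeloid cells, against 3.26% of all genes tested. Kit, Csf3r and Il3ra were not (-0.08, 0.06 and 0.31). The members were named with earlier results of these data known, so the 2 shares are not an independent contrast. Flt3 could be tested here only through its counts in WT.

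**Figure D4:**
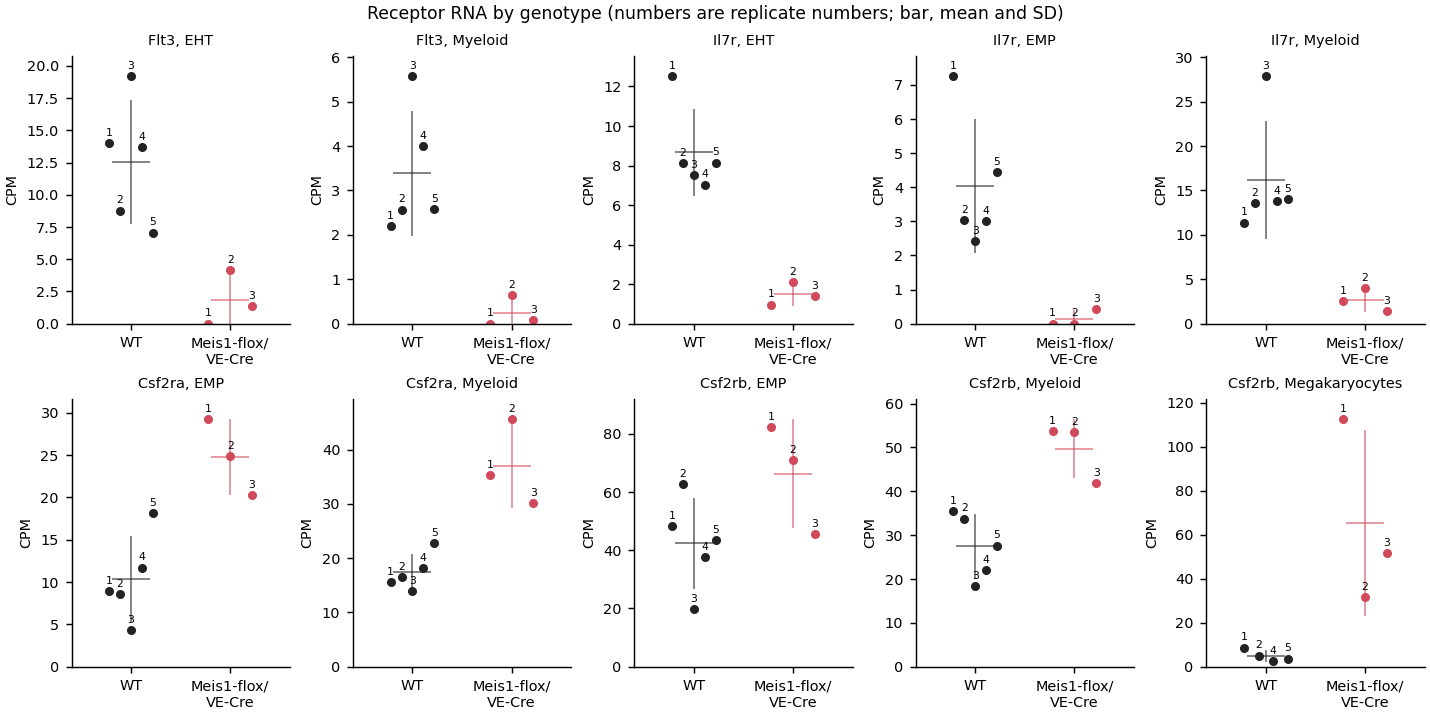
RNA level of receptor genes by genotype in blood cell types, in CPM, 1 point per library numbered by replicate, with bars for the mean and SD. In Myeloid cells the 3 Meis1-flox/VE-Cre libraries lie below all WT libraries for Flt3 and Il7r and above them for Csf2ra and Csf2rb.

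All 4 calls were lost when the depth of the cells (their median UMIs) entered the fit and with a covariate for the 4 deep libraries, WT 1 to 4, though none changed sign. With the first, the log2 differences were -3.47 for Flt3, -2.41 for Il7r, 0.55 for Csf2ra and 0.67 for Csf2rb (adjusted p = 0.718, 0.446, 0.739 and 0.907, edgeR). Against WT 5 alone, whose depth is like that of the Meis1-flox/VE-Cre libraries, Il7r differed by -2.32 and Csf2rb by 0.92 and were called (adjusted p = 0.0208 and 0.0533, edgeR), while Flt3 and Csf2ra were not (-3.17 and 0.77, adjusted p = 0.212 and 0.191). In each test against WT 5 alone the spread comes from the 3 Meis1-flox/VE-Cre libraries, and the lone WT library is assumed to vary like them. Leaving out Meis1-flox/VE-Cre 1 ended the calls of Flt3 (0.154), Il7r (0.103) and Csf2rb (0.188), leaving out 2 that of Csf2rb (0.135), and leaving out 3 that of Flt3 (0.14). Granulocyte markers moved with genotype here: 9 of 9 were read, summing to 735 to 999 CPM in WT and 1642 to 2257 in Meis1-flox/VE-Cre Myeloid cells, and their part in the result was not tested.

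As shares of cells with a UMI, after thinning to 5000 UMIs, no member's difference passed an adjusted 0.05 in exact permutation tests of libraries (26 tests with a value, smallest p 0.0179). The Il7r share was 7.03% in WT and 1.29% in Meis1-flox/VE-Cre Myeloid cells and the Flt3 share 6.25 ± 0.31% (SD, n = 5) and 1.33 ± 2.31% (n = 3) in EHT cells, both with exact p = 0.0179 and adjusted p = 0.133.

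In EHT cells the same receptors were low in Meis1-flox/VE-Cre but did not pass. Flt3 was at 0, 4.17 and 1.39 CPM there, against 7.06 to 19.2 in WT, and Il7r at 0.97, 2.08 and 1.39, against 7.04 to 12.5. Each of the 2 genes had 3 UMIs in Meis1-flox/VE-Cre, so both could be tested only through WT. Of the members 0 of 7 were called, where 0.127% of all genes were by the edgeR F test with BH adjustment. Before adjustment 823 genes were under 0.05, and 43 were called by DESeq2. The log2 differences were -3.07 ± 0.70 for Flt3 and -2.58 ± 0.57 for Il7r (adjusted p = 0.142 and 0.135). Flt3 passed without WT 5 (0.0116, edgeR) and both passed with no filter on low counts (6.2e-04 for Flt3 and 0.0158 for Il7r). Without WT 5 the WT libraries left are all deep, so genotype and depth then coincide. With any other library left out Flt3 did not pass (adjusted p up to 0.590, edgeR). Il7r passed in none of the 4 such fits that tested it (0.172 to 0.590, edgeR).

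In EMP, Csf2ra was at 8.92, 8.62, 4.36, 11.7 and 18.2 CPM in WT and at 29.2, 24.9 and 20.2 in Meis1-flox/VE-Cre. Csf2ra was thus 1.28 ± 0.30 higher (adjusted p = 0.0539, edgeR F test, BH), the 1 of 5 tested members called, against 4.74% of genes. WT 5 was the highest of the WT libraries, and against it alone the difference was 0.47 and not called (0.962, edgeR). The call was also lost without WT 1 or 2 or any 1 of the Meis1-flox/VE-Cre libraries (up to 0.212). Csf2rb (0.67 ± 0.27) and Kit (-0.35 ± 0.16) were not called. Flt3 and Il7r were too low to be tested, at 0.97, 0 and 0 and at 0, 0 and 0.43 CPM in Meis1-flox/VE-Cre against 1.11 to 4.29 and 2.42 to 7.27 in WT. The granulocyte markers summed to 1406 to 1929 CPM in WT and 1889 to 3279 in Meis1-flox/VE-Cre EMP, and their part was not tested.

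Csf2rb in Megakaryocytes was at 8.72, 5.07, 2.48 and 3.74 CPM in WT 1, 2, 4 and 5 and at 112.6, 31.7 and 51.7 in Meis1-flox/VE-Cre. It was 3.84 ± 0.49 higher on the log2 scale (adjusted p = 0.0163, edgeR F test, BH), 1 of 3 tested members, against 0.206% of genes. Its neighbour Csf2rb2 was higher by 5.57 (adjusted p = 0.0163, edgeR), at 0 to 0.83 against 9.21 to 26.4 CPM. Csf2rb2 had 2 UMIs in these WT libraries, with 3 of them at 0, and 58 in Meis1-flox/VE-Cre. It could be tested only through the latter, so its p adds no separate evidence. A Csf2rb UMI was read in 24 of 64, 7 of 65 and 13 of 38 Meis1-flox/VE-Cre cells, and in 1 of 33, 3 of 28, 1 of 5, 1 of 24 and 5 of 102 WT cells. Erythroid markers were at 333 to 6818 CPM in WT and 8377 to 37305 in Meis1-flox/VE-Cre Megakaryocytes, and megakaryocyte markers at 20783 to 39690 and 12158 to 22190. In each Meis1-flox/VE-Cre library the cells with Csf2rb had the higher median erythroid level: 31831 against 7737 CPM, 5433 against 283 and 19260 against 14041. The part of such cells in the difference was not tested. The call was lost without WT 4 (0.12), without Meis1-flox/VE-Cre 1 (0.145) and against WT 5 alone (0.101, edgeR), where the difference was 4.18.

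In the endothelial types no member was called. The mean of Csf2ra, called in EMP and Myeloid cells only, was nevertheless higher in Meis1-flox/VE-Cre than in WT in every cell type. It was at 6.34 against 4.00 CPM in aEC, 3.36 against 2.28 in vEC_1 and 15.9 against 5.33 in pre-HE. In EHT it was at 14.1 against 7.23 and in Megakaryocytes at 10.3 against 5.29. Kit was 0.01 to 0.35 apart on the log2 scale in aEC and the 4 vEC types, and Kit was not called in any of the 9 types where it was tested. In aEC and vEC_1 to vEC_4 0.0%, 0.0%, 0.0187%, 0.0% and 0.0% of genes were called by edgeR, though 895 to 1527 genes were under 0.05 before adjustment, and 11, 86, 87, 87 and 23 genes were called by DESeq2. In pre-HE no member passed the filter on low counts (0.489% of genes called), and Kit was at 4.67 to 17.4 CPM in WT and 14.8, 23.9 and 53.0 in Meis1-flox/VE-Cre, with overlap, from 15 to 33 cells a library in the latter. A difference between cell types in the genotype effect was tested for 42 pairs of a member and 2 types: 7 had an unadjusted p under 0.05 and none passed adjustment (exact permutation of libraries, two-sided, smallest adjusted p 0.214).

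Of the related genes, Pik3cd, a kinase downstream of these receptors, rose in EMP (0.64, adjusted p = 0.0368, edgeR F test, BH), 1 of 19 JAK-STAT genes and adaptors tested there, against 4.74% of all genes. In Myeloid cells Il2rg and Pim1 rose by 0.50 and 0.48 and Lifr fell by 0.71 (adjusted p = 0.0712, 0.0725 and 0.0645, edgeR). That made 2 of 15 other receptors and shared chains and 1 of 15 feedback inhibitors and induced genes, and 0 of 19 JAK-STAT genes, against 3.26% of all genes. None of the ligands tested was called in EHT, Myeloid cells or Megakaryocytes, and none passed the filter in EMP, and in EHT no gene of these 4 lists was.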

How the data were processed

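The authors deposited UMI counts per gene and antibody tag for every cell, together with a table of each cell's sample and cell type. Per the submitters' processing notes reads were counted with Cell Ranger 3.0.2 on mm10. The authors had filtered cells by mitochondrial share and number of genes (the fewest in any deposited cell was 2001), had integrated the libraries in Seurat, and had named clusters by hand from RNA. Every column of values belonged to a sample (0 did not). The samples are separate pools of embryos.

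Counts of the cells of each type were added up within a library (10 or more cells) and tested with edgeR's quasi-likelihood test (TMM, filterByExpr, adjusted p under 0.1). filterByExpr was given the whole design for steps and tags. A filter by group sizes was tried next and was set aside after seeing that it left fewer members testable: 2 rather than 7 from pre-HE to EHT and 5 rather than 7 from EMP to Megakaryocytes. For the tag it left 1 rather than 4 in EHT, 0 rather than 2 in Megakaryocytes and 6 rather than 7 in Myeloid cells. Shares and tags were tested by exact permutation or sign flips over libraries. In simulated counts 97.5 to 100.0% of 200 genes changed by 1.5 on the log2 scale were found, and 7.8 to 11.1% of calls were false (5 comparisons). The changed genes were taken from well-read genes, all genes had a common spread, and no effect of depth with genotype was put in. These shares therefore need not hold for members at low counts, such as Flt3 and Il7r, or for the genotype calls. Scrublet called 83 cells (0.547%), which were kept. Named genes beside the members were the 3 most like each member by correlation, among genes of at least 10 CPM in a cell type, called genes of the pathway lists, and for the tag in EHT and EMP up to 5 each with the largest rise and fall, past the threshold, with a mean log2 CPM of at least 5, that moved one way in every library. Alternatives were RLE normalization, DESeq2, no filter, at least 20 cells, no doublets, thinning to 5000 UMIs, each library left out, depth covariates and, for tags, medians and centred log ratios. The grouping of libraries by depth and the filter by group sizes were added after seeing the data. Tools were Python 3.11.15 with scipy 1.17.1 and scanpy 1.11.5. Limits from a count of 0 cover counting error only.

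The members and gene lists were chosen with earlier results of these data known. Results of 1 gene of the pathway lists are not reported here.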

Additional observations from a re-analysis of the deposited data

Results flagged for a closer look

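In 42 groups of 4 or 5 libraries, 1 library stood apart from the others in 2 (by Dixon's criterion, which chance meets in about 1 of 20 groups). Il7r in WT EHT cells was at 12.53 CPM in WT 1, against 7.04 to 8.14 in the other WT libraries, and Il7r in WT Myeloid cells was at 27.89 CPM in WT 3, which had 35 Myeloid cells, against 11.4 to 14.1 in the others. In both cases every Meis1-flox/VE-Cre library lay below all WT libraries with or without the library that stood apart.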

How the results depend on the processing

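Depth runs with genotype, and the covariates that carry it ended every genotype call of a member. With median UMIs the log2 differences were 0.40 for Csf2ra in EMP, 3.96 for Csf2rb in Megakaryocytes, and -3.47 for Flt3, 0.55 for Csf2ra, 0.67 for Csf2rb and -2.41 for Il7r in Myeloid cells. With the depth class (chosen after seeing the data) they were 0.45, 4.18, -3.20, 0.75, 0.90 and -2.34. Against WT 5 alone Csf2ra in EMP was 0.47, Csf2rb in Megakaryocytes 4.18, and Flt3 and Csf2ra in Myeloid cells -3.17 and 0.77. After thinning Csf2ra in Myeloid cells was 0.88. With no filter Flt3 and Il7r in EHT were -3.09 and -2.61 and passed.

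Leaving out a library gave -4.21 to -2.19 for Flt3 in EHT, 1.15 to 1.54 for Csf2ra in EMP, 3.16 to 4.19 for Csf2rb in Megakaryocytes, and in Myeloid cells -5.55 to -3.02 for Flt3, 0.80 to 0.98 for Csf2rb and -2.90 to -2.13 for Il7r. For Kit with the tag it gave 0.34 to 0.61 in EHT and 1.57 to 2.02 in Megakaryocytes, and DESeq2 gave 0.49 and 1.91 and thinning 0.46 in EHT. The tag's log2 ratio to aEC was 2.35 to 2.56 in EHT, 1.65 to 1.83 in EMP, 0.81 to 1.02 in Myeloid cells, 1.29 to 1.41 in Megakaryocytes and -0.46 to -0.32 in pre-HE; with 6 libraries the smallest p is 0.0312, so that a smaller number alone can end a call. As medians the ratios were 2.37, 1.69, 0.31, 0.76 and -0.19, and as centred log ratios 0.29, -0.62, -1.49, -1.43 and -0.28, with vEC_3 at -0.11, so that EMP, Myeloid, Megakaryocytes and vEC_3 changed sign. Cells divided by c-kit relative to the other tags gave Flt3 1.32 and Il7r 1.18 in Myeloid cells, opposite in sign to the values by c-kit alone. Both were then called (adjusted p = 0.0348 and 0.0054, edgeR). Csf2rb (-0.58), Csf3r (-0.29) and Il3ra (-0.42) were called there too (adjusted p = 1.0e-04, 0.0510 and 0.0357, edgeR). The rho of Kit RNA and tag was 0.39 in EMP and 0.44 in Myeloid cells with all UMIs, 0.37 and 0.44 as CPM per cell, and 0.17 in Myeloid cells with the centred tag. The cause of these changes was not tested.

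Replicate numbers did not pair the samples: 16 of 29 pairs correlated above 0.1 (r from -0.27 to 0.37) and in 0 of 10 cell types did all. With the replicate block Flt3 in EHT was -3.23 and passed; 487, 1001, 1338 and 71 genes were called in EHT, EMP, Myeloid cells and Megakaryocytes, against 278, 717, 1335 and 104 in the same libraries unblocked and 11, 435, 374 and 16 in all libraries. Without WT 5 there were 261, 828, 1421 and 118, and with the depth class 1, 7, 8 and 0. Over all alternatives the genes called with the tag ran from 16 to 505 in EHT, 153 to 948 in EMP, 581 to 3635 in Myeloid cells and 20 to 816 in Megakaryocytes, against 63, 689, 3469 and 378. Those called at the steps were at the fewest 2214, 2884, 2012, 2931 and 2751 in the order of the text, against 3944, 5954, 5840, 6648 and 5968.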

Other observations

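Mast cell markers, which include genes of a Kit-bearing lineage, summed to 0.6 to 4.3 CPM in WT and 8.3 to 248.3 in Meis1-flox/VE-Cre EHT cells. In WT EMP cells 4 of 221 cells with a Csf2rb UMI had an Il7r UMI (1.81%), against 8.88% of the cells without Csf2rb, and in WT Myeloid cells it was 17.2% against 24.0%. Lifr, a receptor chain of endothelium and blood, was at 94.1 to 155.6 CPM in WT pre-HE cells and at 16.5 to 32.6 in WT aEC.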
